A study of Mus musculus with 6 samples.

Results

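Chemokine and sphingosine-1-phosphate (S1P) receptors were followed in the RNA of LSK cells, a bone marrow (BM) fraction without lineage markers but with Sca1 and c-Kit, which holds hematopoietic stem and progenitor cells. The members were 8 genes taken by name from the deposited table of 54532 genes, namely *Cxcr4*, *Cxcr2*, *Cxcr3*, *Ccr1*, *Ccr9*, *S1pr1*, *S1pr2* and *S1pr4*. The rule took them by name, not by a measured value, from a list drawn up with earlier results of these data known. LSK cells were sorted from *Myh9fl/fl;Mx1-cre* mice and from littermates labelled *Myh9fl/fl;no cre*, with 3 libraries in each group. All mice were C57BL/6, were genotyped at 4 to 5 weeks of age by the labels, and received poly I:C at 5 mg/kg, which induces interferon and through it the *Mx1-cre* transgene. Poly I:C was given to both groups, the labels state 2 doses and the methods 3, and LSK cells were sorted 4 days after the first one. Each library came from 100000 sorted cells, and how many mice gave the cells of a library is not stated, so the p-values measure the spread between these libraries, which may be partly technical. The *Mx1* promoter answers to interferon in many tissues, the liver among them.

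Chemokine receptors and S1P receptors are G protein-coupled receptors that turn gradients of their ligands into directed movement. In BM, CXCL12 made by stromal and endothelial cells holds stem and progenitor cells in place through CXCR4, while S1P, which is high in blood and lymph, draws cells bearing S1PR1 out of the tissue. CXCR2 and CCR1 answer to inflammatory chemokines and are best known from neutrophils and monocytes, CXCR3 from activated T cells and NK cells, and CCR9 from lymphoid progenitors on their way to the thymus and from cells of the gut. Movement along these gradients needs actin and myosin II, whose heavy chain IIA is the product of *Myh9*.

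Each library held 17571544 to 19894562 reads on genes, recovered from FPKM (fragments per kilobase of gene, scaled to the library's total) times gene length, which gave whole reads for 100% of the values examined. *Myh9* measured 22.5 ± 0.495 FPKM (SD, n = 3) in control against 18.7 ± 1.18 FPKM in *Myh9*-deficient LSKs, which on the log2(FPKM + 1) scale is a fold change (log2FC) of -0.26 (limma adjusted p = 0.00642), and every *Myh9*-deficient library lay below every control library. The *Myh9*-deficient mean differed by -17.1% from control, so that *Myh9*-deficient names the genotype in the labels, and most of the *Myh9* RNA was still measured in these libraries. The paper places the loxP sites at exon 1, whereas this value covers the whole gene, so it does not measure how much of the allele was deleted. By real-time PCR, the paper reports efficient deletion in BM. The log2FC of *Myh9* became -0.12 (limma adjusted p = 0.0517) once the dependence on GC content and gene length had been fitted and taken out. The sort markers *Kit* and *Ly6a*, which encode c-Kit and Sca1, were present in every library, at means of 23.9 and 95.4 FPKM in control and of 21.5 and 89.5 FPKM in *Myh9*-deficient LSKs, where *Kit* was lower (limma adjusted p = 0.0105). Of the 8 LSK and HSPC markers, 7 were tested, and *Flt3* (log2FC 0.58), *Procr* (0.67) and *Hlf* (0.38) were higher, *Kit* was lower and *Ly6a*, *Cd34* and *Slamf1* were not called, so the sorted fractions differed in such genes as well, and their part in the receptor differences was not tested. The 5 endothelial and stromal markers (*Cdh5*, *Kdr*, *Lepr*, *Col1a1* and *Col3a1*) summed to at most 0.188 FPKM in any library.

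Promoter sequences were found for 7 of the 8 receptor genes in the RefSeq table of the GRCm38.p6 build, *S1pr1* having no entry. They run from 250 bases before to 50 bases after the gene start that RefSeq gives. This start lies within 12 bases of that of the deposited gene for *Cxcr4*, *Cxcr2*, *Ccr1*, *S1pr2* and *S1pr4*, but 122 bases downstream of it for *Cxcr3* and 88772 bases downstream for *Ccr9*, whose deposited span begins with a longer transcript. Of these, 4 are shown, 5′ to 3′ on the gene's strand, since they belong to the receptor with the highest level (*Cxcr4*), to 2 that fell (*Cxcr2* and *S1pr2*) and to the S1P receptor that rose (*S1pr4*). Capitals mark the letters CACCC, which KLF factors can bind, TGANTCA, which AP-1 factors can bind, and TATAAA, the TATA box, each searched on both strands.
Cxcr4 (chr1:128592250-128592549, minus strand): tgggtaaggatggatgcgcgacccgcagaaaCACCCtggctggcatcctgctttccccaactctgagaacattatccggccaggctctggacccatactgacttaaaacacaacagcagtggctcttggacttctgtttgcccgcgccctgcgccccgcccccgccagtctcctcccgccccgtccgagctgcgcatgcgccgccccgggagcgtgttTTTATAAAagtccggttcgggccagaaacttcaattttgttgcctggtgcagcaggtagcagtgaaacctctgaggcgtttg
Cxcr2 (chr1:74153744-74154043, plus strand): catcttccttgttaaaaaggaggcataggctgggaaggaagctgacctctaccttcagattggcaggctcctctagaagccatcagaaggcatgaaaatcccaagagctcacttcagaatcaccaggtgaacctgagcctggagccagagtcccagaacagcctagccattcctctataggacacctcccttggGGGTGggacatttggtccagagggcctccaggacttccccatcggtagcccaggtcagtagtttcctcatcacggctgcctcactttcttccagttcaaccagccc
S1pr2 (chr9:20976744-20977043, minus strand): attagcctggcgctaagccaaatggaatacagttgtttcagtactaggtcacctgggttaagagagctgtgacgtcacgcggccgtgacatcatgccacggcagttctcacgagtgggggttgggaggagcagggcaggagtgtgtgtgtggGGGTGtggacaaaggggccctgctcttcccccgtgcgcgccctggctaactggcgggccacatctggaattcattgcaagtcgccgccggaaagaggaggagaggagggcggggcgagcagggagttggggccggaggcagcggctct
S1pr4 (chr10:81500088-81500387, minus strand): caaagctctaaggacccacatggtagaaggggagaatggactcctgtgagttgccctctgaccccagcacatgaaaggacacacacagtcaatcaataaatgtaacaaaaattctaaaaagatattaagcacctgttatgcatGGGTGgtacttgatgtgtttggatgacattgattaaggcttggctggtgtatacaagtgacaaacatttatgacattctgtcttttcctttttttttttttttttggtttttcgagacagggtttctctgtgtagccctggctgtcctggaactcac
The letters CACCC were found in 5 of the 7 promoters, those of *Cxcr4*, *Cxcr2*, *Ccr9*, *S1pr2* and *S1pr4*, against 57.5% of all 32851 promoters of this length in the table. TGANTCA was found in none of the 7, against 7.81% of all promoters. TATAAA was found in that of *Cxcr4*, where it is read on both strands from overlapping bases, against 13.6% of all promoters. The promoters without CACCC were those of *Ccr1* and *Cxcr3*. GC content was 59.3% in the window of *Cxcr4*, 54.0% in that of *Cxcr2*, 62.0% in that of *S1pr2* and 41.0% in that of *S1pr4*.

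Of the 8 receptors, 6 averaged 1 FPKM or more across the 6 libraries and were tested. At an adjusted p under 0.05 (limma on log2(FPKM + 1), two-sided, Benjamini-Hochberg adjustment across 11552 genes), *Cxcr2*, *S1pr1* and *S1pr2* were lower and *S1pr4* and *Ccr1* higher in *Myh9*-deficient LSKs, while *Cxcr4* was not called. *Ccr1* passed the limit of 1 FPKM through the *Myh9*-deficient group alone. Its call was lost without the filter and in 5 of the 6 fits that left out 1 library. The background in this comparison was high, since 40.5% of all genes tested were called, 19.9% higher and 20.6% lower. With voom, limma's method for read counts, on the recovered reads it was 45.8% (22.8% higher and 23.1% lower), without a filter on low values 17.1% (9.02% higher and 8.1% lower), and with voom and no filter 22.3% (11.1% higher and 11.2% lower). Changes of more than 2-fold on the log2(FPKM + 1) scale, with an adjusted p under 0.05, made up 2.09% of genes tested. None of the 6 receptors was among them. The added 1 shrinks the changes of genes with low FPKM. Control and *Myh9*-deficient values were apart for 5 of the 6 receptors tested, *Ccr1* among them, and did not overlap for 54.0% of all genes tested. In bulk RNA, fewer cells that express a receptor and less of its RNA per cell cannot be told apart. With 3 libraries against 3, an exact permutation test of a single gene cannot give a p below 0.1 (two-sided).

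**Figure D1:**
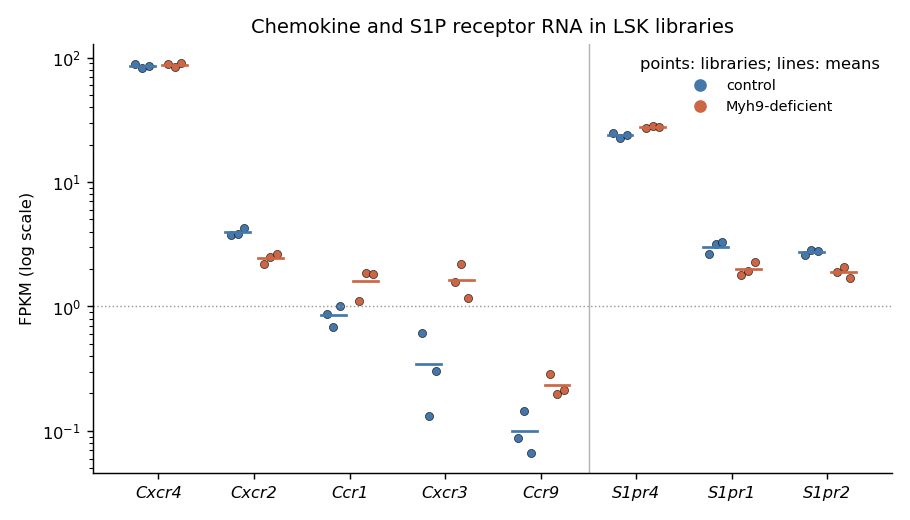
FPKM (log axis) of the 5 chemokine receptors and, right of the vertical line, the 3 S1P receptors in each library, with points for the 3 control and 3 *Myh9*-deficient libraries and lines for their means; the dotted line is at 1 FPKM. The groups overlap for *Cxcr4* and are apart for the other 7 genes.

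*Cxcr4*, the receptor for CXCL12 and the main retention receptor of BM progenitors, had the highest level of the 8. It lies on chromosome 1 from 128588199 to 128592293 (mm10, minus strand), is normalized over 1808 bases of 2 exons, and shares no exon base with another gene in GENCODE M21. Control libraries measured 88.8, 83.0 and 84.9 FPKM and *Myh9*-deficient libraries 87.9, 84.6 and 89.6 FPKM. The groups overlapped, and the means of 85.6 ± 2.93 and 87.4 ± 2.52 FPKM (SD, n = 3 each) gave a log2FC of 0.03 (95% interval -0.055 to 0.11, limma adjusted p = 0.540). At 2646 to 3192 reads per library, this interval leaves out a change of the size seen in *Cxcr2*, *S1pr1* or *S1pr2*. The direction was not stable, being -0.0085 after quantile normalization and -0.060 after taking out GC content and length.

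*Cxcr2*, the receptor for neutrophil-attracting chemokines such as CXCL1 and CXCL2, lies on the same chromosome (74153989 to 74161246, plus strand). Control libraries held 3.75, 3.80 and 4.26 FPKM and *Myh9*-deficient libraries 2.21, 2.48 and 2.66 FPKM. The highest of the *Myh9*-deficient libraries was still under the lowest control, and the mean changed by -37.7% (log2FC -0.52, standard error 0.073, limma adjusted p = 0.00210). *Cxcr4* was 21.8 ± 1.88 times the level of *Cxcr2* in control and 35.9 ± 3.45 times in *Myh9*-deficient libraries (ratio of FPKM within a library), and these ratios, which do not depend on the scaling of a library, did not overlap between the groups.

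*Ccr1*, a receptor for CCL3, CCL5 and related chemokines, is on chromosome 9 (123962124 to 123968692, minus strand) and was near the lower limit of the test. Control libraries had 49, 34 and 55 reads and *Myh9*-deficient libraries 59, 96 and 96, which is 0.870, 0.681 and 1.01 FPKM against 1.11, 1.86 and 1.82 FPKM. No *Myh9*-deficient library was as low as a control, the nearest pair being 1.11 and 1.01 FPKM, and *Ccr1* passed the limit of 1 FPKM through the *Myh9*-deficient group alone, whose mean was 1.60 FPKM against 0.854 FPKM in control. The log2FC was 0.48 with an adjusted p of 0.0350 (limma), or 0.88 and 0.00911 with voom on the recovered reads. The call was lost in 5 of the 6 fits that left out 1 library, without any of the 3 control libraries and without replicate 2 or 3 of the *Myh9*-deficient group, labelled cKO (adjusted p = 0.0517 to 0.103), and remained without cKO replicate 1 (adjusted p = 0.00967).

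*Cxcr3*, the receptor for the interferon-induced CXCL9, CXCL10 and CXCL11, is on chromosome X (101731535 to 101734269, minus strand). Its mean over the 6 libraries was 0.997 FPKM, just under the limit of 1 FPKM, so it was not tested in the main comparison. Control libraries held 21, 4 and 10 reads (0.610, 0.131 and 0.301 FPKM) and *Myh9*-deficient libraries 51, 69 and 38 reads (1.57, 2.19 and 1.18 FPKM). The lowest *Myh9*-deficient library was above the highest control, and the ratio of the means was 4.74, or 7.62 without control replicate 1 and 3.61 to 5.41 without any 1 of the other libraries. Without the filter on low values, where 9.02% of 24337 genes were called higher, the log2FC was 0.97 (limma adjusted p = 0.0207), and with voom on the recovered reads, where 11.1% were called higher, it was 2.35 (standard error 0.47, adjusted p = 0.00120).

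*Ccr9*, the receptor for CCL25, had the lowest level, with 18, 26 and 13 reads in control and 55, 37 and 41 reads in *Myh9*-deficient libraries (0.0882, 0.144 and 0.0660 against 0.286, 0.198 and 0.215 FPKM). The *Myh9*-deficient libraries were again all higher, with a ratio of means of 2.34. Without the filter on low values the adjusted p was 0.0554 with limma and 0.0123 with voom on the recovered reads, so its call depended on the method. The gene spans 123678439 to 123784330 on chromosome 9 (plus strand), and of the 10260 bases over which it is normalized 21.5% are also exon bases of other genes, *Slc6a20a* on the opposite strand among them. Whether reads were counted by strand is not given in the sources used here, so reads of *Ccr9* and of these genes cannot be told apart there.

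Of the S1P receptors, *S1pr4*, which is known from hematopoietic and lymphoid cells, had by far the highest level. It is a gene of 1 exon on chromosome 10 (81497747 to 81500132, minus strand). Control libraries measured 24.9, 22.7 and 23.7 FPKM and *Myh9*-deficient libraries 27.0, 28.0 and 27.6 FPKM. The *Myh9*-deficient libraries were all higher, by 15.9% of the control mean (log2FC 0.21, standard error 0.040, limma adjusted p = 0.00738).

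*S1pr1*, the receptor that leads lymphocytes and progenitors out of tissues towards S1P, lies on chromosome 3 (115710433 to 115715072, minus strand) and moved the other way. It measured 2.64, 3.17 and 3.27 FPKM in control against 1.79, 1.93 and 2.29 FPKM in *Myh9*-deficient libraries. No *Myh9*-deficient library reached the lowest control library, and the mean changed by -33.8% (log2FC -0.42, standard error 0.094, limma adjusted p = 0.0122).

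*S1pr2*, which in many cells restrains movement, is on chromosome 9 (20962361 to 20976781, minus strand). Control libraries had 2.57, 2.85 and 2.77 FPKM and *Myh9*-deficient libraries 1.90, 2.06 and 1.68 FPKM. The groups were again apart, the mean moving by -31.3% (log2FC -0.38, standard error 0.073, limma adjusted p = 0.00723). It is normalized over 7971 bases, of which 13.2% are coding, and its log2FC was -0.27 (adjusted p = 0.0223) after taking out GC content and length.

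**Figure D2:**
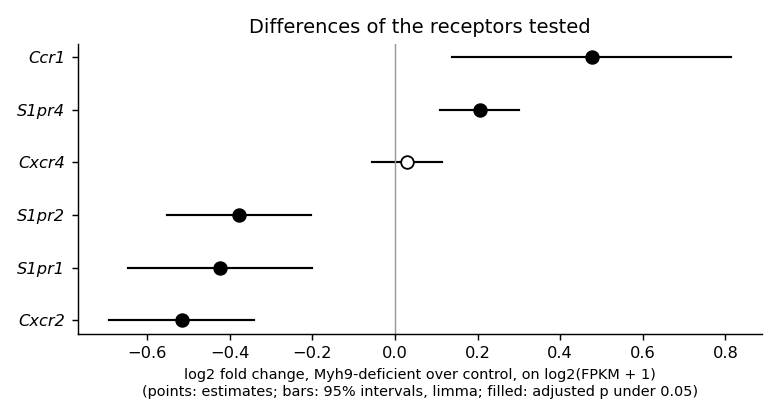
Log2 fold changes of the 6 receptors tested, *Myh9*-deficient over control on log2(FPKM + 1), with 95% intervals from limma; filled points have an adjusted p under 0.05. *Cxcr2*, *S1pr1* and *S1pr2* lie below 0, *S1pr4* and *Ccr1* above it, and the interval of *Cxcr4* holds 0.

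In order of level per length, control LSKs had *Cxcr4*, *S1pr4*, *Cxcr2*, *S1pr1*, *S1pr2*, *Ccr1*, *Cxcr3* and *Ccr9*. In this order, the ranges of *S1pr1* and *S1pr2* overlapped and so did those of *Cxcr3* and *Ccr9*, and the other neighbours did not. In *Myh9*-deficient LSKs, *Cxcr3* moved from the seventh to the sixth place, above *Ccr1*, and neighbours overlapped from *Cxcr2* through *S1pr1*, *S1pr2* and *Cxcr3* to *Ccr1*, while *Ccr9* stood apart below them. Between the groups, the balance of the S1P receptors shifted. *S1pr4* was 9.42, 7.17 and 7.25 times the level of *S1pr1* in the control libraries and 15.1, 14.5 and 12.0 times in the *Myh9*-deficient ones. It made up 69.1 ± 2.15% of the summed FPKM of the 5 S1P receptors in control and 81.5 ± 0.823% in *Myh9*-deficient LSKs, and neither measure overlapped between the groups. The ratio of *S1pr1* to *S1pr2* was 1.10 ± 0.0764 in control and 1.08 ± 0.246 in *Myh9*-deficient libraries, with overlapping values.

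The other S1P receptors and the genes that make, carry and break down S1P were read from a list of 12 genes. Of these, 8 were tested, 2 were higher (*Sphk1* and *Spns2*), 4 were lower (*S1pr3*, *Sphk2*, *Sgpl1* and *Sgpp1*) and 2 were not called, the median log2FC being -0.14 against -0.0096 over all genes tested. *S1pr3* held 4.85, 5.26 and 4.38 FPKM in control against 2.07, 2.56 and 2.50 FPKM in *Myh9*-deficient libraries (log2FC -0.79, limma adjusted p = 6.73e-04). In control it stood above *S1pr1* and *S1pr2*, and its log2FC was the most negative of the 3, a difference that was not tested. *S1pr5* had a mean under 1 FPKM in both groups.

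The 2 sphingosine kinases, which make S1P, moved in opposite directions. *Sphk1* rose from 4.06, 4.30 and 4.68 FPKM to 9.75, 10.3 and 10.3 FPKM (log2FC 1.05, limma adjusted p = 3.57e-05). *Sphk2* fell from 11.1 ± 0.614 to 7.85 ± 0.0660 FPKM (log2FC -0.44, adjusted p = 5.85e-04). The ratio of *Sphk1* to *Sphk2* was 0.394 ± 0.0422 in control and 1.29 ± 0.0277 in *Myh9*-deficient libraries, so the kinase with more RNA was *Sphk2* in control and *Sphk1* in *Myh9*-deficient LSKs.

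*Spns2*, an S1P exporter, rose from 40.3 ± 0.772 to 50.1 ± 1.16 FPKM (log2FC 0.31, limma adjusted p = 4.52e-04). *Mfsd2b*, the exporter of red cells and platelets, had 20.6 ± 0.486 and 20.3 ± 0.623 FPKM (log2FC -0.02, 95% interval -0.11 to 0.065, adjusted p = 0.686). *Sgpl1*, the lyase that ends the S1P pathway, fell from 7.83 ± 0.325 to 4.72 ± 0.202 FPKM (log2FC -0.62, adjusted p = 1.93e-04). The S1P phosphatase *Sgpp1* fell by 0.16 on the log2 scale (adjusted p = 0.0224), and its adjusted p rose above 0.05, up to 0.0691, without any of the 3 control libraries or without cKO replicate 1. The lipid phosphatase *Plpp2* measured 11.1 and 10.2 FPKM (log2FC -0.12, adjusted p = 0.263).

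**Figure D3:**
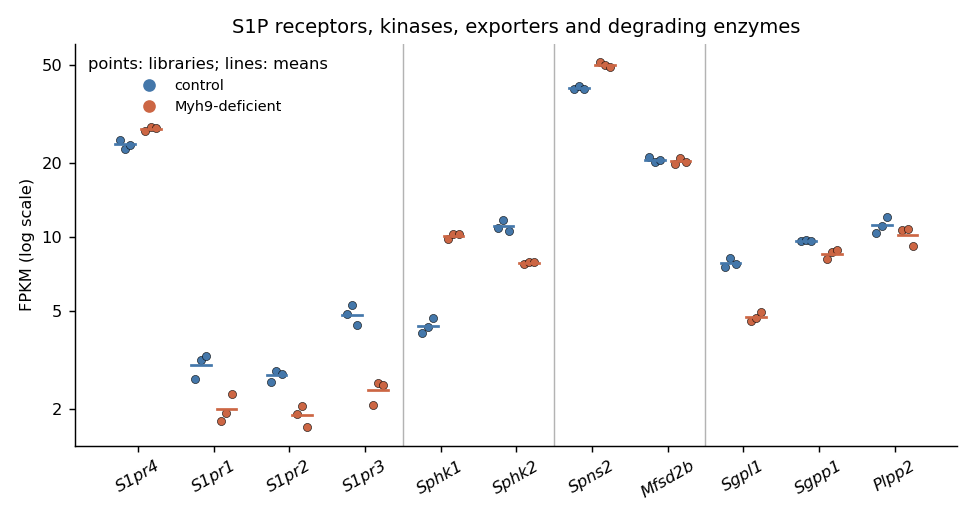
FPKM (log axis) of S1P receptors, sphingosine kinases, exporters and degrading enzymes, separated by vertical lines, in the 3 control and 3 *Myh9*-deficient libraries; lines are means. *S1pr4*, *Sphk1* and *Spns2* are higher and *S1pr1*, *S1pr2*, *S1pr3*, *Sphk2*, *Sgpl1* and *Sgpp1* lower in *Myh9*-deficient libraries, while *Mfsd2b* and *Plpp2* overlap.

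Of 19 other chemokine receptors, 16 had a mean under 1 FPKM, and the 3 tested were all lower in *Myh9*-deficient LSKs. Those not tested went both ways, at few reads. *Ccr10* (0.147 FPKM in control against 0.698 FPKM) and *Cxcr6* (0.372 against 0.820 FPKM) were higher in *Myh9*-deficient LSKs, and *Cxcr5* (0.111 against 0.0109 FPKM) was lower. *Ccr2*, the receptor that takes monocytes to CCL2, fell from 14.4 ± 0.422 to 6.73 ± 0.167 FPKM (log2FC -0.999, limma adjusted p = 1.19e-05). *Cx3cr1*, the fractalkine receptor of monocytes and macrophages, fell from 3.87 ± 0.328 to 1.30 ± 0.166 FPKM (log2FC -1.08, adjusted p = 1.72e-04). *Ccrl2*, which binds chemerin without signalling like a chemokine receptor, fell from 5.05 to 3.76 FPKM (log2FC -0.34, adjusted p = 0.0203), a call lost without control replicate 2 or 3 or without cKO replicate 2 (adjusted p up to 0.0602). *Cxcr4* made up 73.4 ± 1.13% of the summed FPKM of all 24 chemokine receptors in control and 80.6 ± 0.303% in *Myh9*-deficient LSKs, and the sum itself was 116.5 ± 2.19 and 108.4 ± 2.94 FPKM.

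Markers of other cell types moved with some of these receptors. The 7 monocyte markers, of which *Ccr2* and *Cx3cr1* are part, were all lower, and the other 5 (*Csf1r*, *Ly86*, *Ms4a6c*, *Fcgr3* and *Lyz2*) summed to 393.6 to 401.5 FPKM in control against 203.7 to 212.8 FPKM in *Myh9*-deficient libraries. The part of monocytic cells in the falls of *Ccr2* and *Cx3cr1* was not tested. Of 11 neutrophil markers, 10 were tested, 6 were lower and 2 higher, and their sum ran from 6653 to 6718 FPKM in control and from 3521 to 3586 FPKM in *Myh9*-deficient libraries. Most of that sum came from *Mpo* and *Elane* (log2FC -0.77 and -1.20), granule genes that early progenitors also express. Of the genes of maturing neutrophils, *Ltf* (-0.67), *Camp* (-0.63), *Ngp* (-0.35) and *S100a9* (-0.18) were lower, *Retnlg* (1.65) and *Mmp9* (0.45) were higher, *Mmp9* having passed the limit of 1 FPKM through the *Myh9*-deficient group alone, and *S100a8* and *Mmp8* were not called. *Cxcr2* fell beside these sums, and their part in its difference was not tested.

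The 10 T and NK cell markers summed to 365.3 to 377.7 FPKM in control against 330.4 to 334.9 FPKM in *Myh9*-deficient libraries, and most of this was *Nkg7*, which fell from 353.4 to 279.6 FPKM. The other 9 summed to 14.8 to 18.8 FPKM in control against 50.6 to 54.2 FPKM in *Myh9*-deficient libraries, and the 4 of them that were tested (*Trbc2*, *Lck*, *Klrd1* and *Ccl5*) were higher, *Klrd1* having passed the limit of 1 FPKM through the *Myh9*-deficient group alone. *Ccl5* made up 57.1% to 68.0% of this sum, and the 8 genes without it and *Nkg7* summed to at most 7.06 FPKM in a control library and at least 16.2 FPKM in a *Myh9*-deficient library. The defining T cell gene *Cd3e* had 0 reads in each control library and 14, 21 and 18 reads in *Myh9*-deficient libraries, and *Cd3d* had 2, 9 and 3 against 44, 54 and 48 reads. *Cxcr3* moved in the same direction as these markers, and opposite to *Nkg7* and the sum of the whole list, and their part in its difference was not tested. The 3 plasmacytoid dendritic cell markers tested held 1 call, the fall of *Bst2*, and the 6 together summed to 265.6 to 275.3 FPKM in control against 240.3 to 246.6 FPKM in *Myh9*-deficient libraries. Nearly all of this sum was *Bst2*, with means of 259.3 and 232.8 FPKM, and *Cox6a2* and *Ly6d* were not called. The 5 lymphoid progenitor markers summed to 61.0 to 63.7 FPKM in control against 70.1 to 70.6 FPKM in *Myh9*-deficient libraries, nearly all of it *Dntt*, which rose (log2FC 0.19), while *Notch1* fell (-0.37) and *Il7r*, *Rag1* and *Rag2* were not tested. Their part in the difference of *Ccr9* was not tested. The 8 erythroid markers summed to 424.7 to 429.2 against 768.7 to 793.1 FPKM, most of it *Car1* (means of 344.3 and 618.1 FPKM). The 6 mast cell and basophil markers summed to 90.3 to 102.4 against 148.8 to 158.5 FPKM. The 7 B and plasma cell markers summed to 168.8 to 172.6 against 162.3 to 167.9 FPKM, which hides opposite moves. Of these, 6 were tested, and *Ighm* (log2FC -0.75) and *Sdc1* (-0.41) were lower and *Cd79b* was not called. Higher were *Jchain* (1.05), *Mzb1* (0.84) and *Cd79a* (0.54), *Cd79a* having passed the limit of 1 FPKM through the *Myh9*-deficient group alone.

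**Figure D4:**
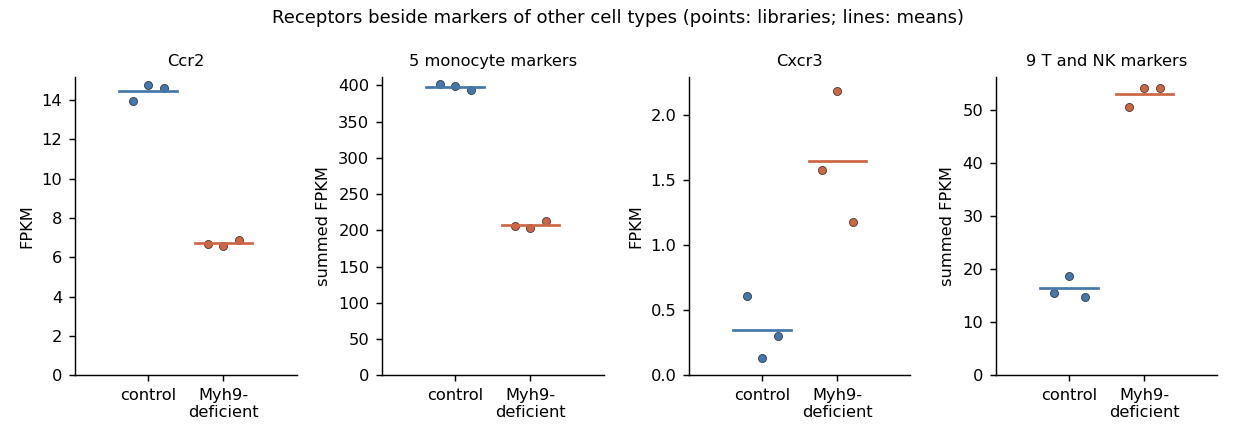
FPKM of *Ccr2* and *Cxcr3* and summed FPKM of 5 monocyte markers (without *Ccr2* and *Cx3cr1*) and 9 T and NK cell markers (without *Nkg7*) in each library, each axis from 0; points are libraries and lines are means. *Ccr2* and the sum of the 5 monocyte markers are lower in all 3 *Myh9*-deficient libraries. *Cxcr3* and the sum of the 9 T and NK cell markers are higher in them. *Nkg7*, which is not shown, and the sum of the whole list of 10 T and NK cell markers moved the other way.

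Among 19 chemokine ligands, 8 were tested. Of those, 3 rose, 4 fell and *Cxcl10* was not called, the list's median log2FC being -0.29. *Ccl5*, a ligand of CCR1, rose from 10.1 ± 1.62 to 35.5 ± 1.17 FPKM (log2FC 1.73, limma adjusted p = 5.46e-05). *Ccl5* is also 1 of the 10 T and NK cell markers, of which *Trbc2*, *Lck* and *Klrd1* rose and *Nkg7* fell, and their part in its rise was not tested. *Pf4*, the platelet chemokine CXCL4, rose from 31.9 to 68.1 FPKM (log2FC 1.07). The 5 megakaryocyte markers, *Pf4* among them, summed to 56.2 to 59.9 FPKM in control against 124.0 to 129.0 FPKM in *Myh9*-deficient libraries, and their part in the rise of *Pf4* was not tested. *Ccl6* rose with a log2FC of 0.31 (limma adjusted p = 0.0252), a call that remained without cKO replicate 1 and was lost without any 1 of the other 5 libraries. *Ccl4* fell from 62.8 ± 3.38 to 28.1 ± 3.70 FPKM (log2FC -1.14, adjusted p = 2.34e-04), *Cxcl2*, a ligand of CXCR2, from 6.30 to 3.24 FPKM (-0.79), and *Ccl3*, a ligand of CCR1, from 72.2 to 46.3 FPKM (-0.63). *Cxcl12* had means of 0.0514 FPKM in control against 0.0884 FPKM in *Myh9*-deficient LSKs, so RNA of this CXCR4 ligand was near 0 in the sorted cells.

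Downstream of the receptors, 16 of 17 genes of G proteins, receptor kinases (GRKs) and arrestins were tested, 2 were higher, 8 lower and 6 not called. *Gnai2*, the main inhibitory G protein of chemokine signalling in blood cells, fell from 182.4 ± 2.85 to 138.0 ± 2.13 FPKM (log2FC -0.40, limma adjusted p = 6.57e-05). *Grk2*, a kinase that shuts off activated receptors, fell from 70.6 to 53.3 FPKM (-0.40), and *Gna12*, the α subunit G12, from 28.1 to 21.9 FPKM (-0.34). In the other direction, *Arrb2*, an arrestin that internalizes receptors such as CXCR4, rose from 31.9 ± 0.234 to 44.0 ± 0.836 FPKM (log2FC 0.45, adjusted p = 6.33e-05). *Gng5* rose with a log2FC of 0.11 (limma adjusted p = 0.0456), a call lost after quantile normalization (adjusted p = 0.273) and without control replicate 2 or 3 or cKO replicate 1 or 3.

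Of 24 migration effectors, which include Rac exchange factors, PI3Kγ and PI3Kδ, phospholipases and kinases, 22 were tested, of which 18 fell and 1 rose, the median log2FC being -0.24. Leaving out 1 library gave 11 to 16 lower, the 11 without control replicate 2, and taking out GC content and length gave 14. *Prex1*, an exchange factor for Rac that Gβγ and PI3K activate, fell from 6.92 ± 0.283 to 4.17 ± 0.525 FPKM (log2FC -0.62, limma adjusted p = 0.00133). *Pik3cd*, the catalytic subunit PI3Kδ, fell from between 29.7 and 30.1 to between 19.0 and 19.6 FPKM (-0.61, adjusted p = 2.40e-05), and *Tiam1*, another Rac exchange factor, from 4.83 to 3.12 FPKM (-0.50). *Coro1a*, an actin-binding protein of leukocytes, was the exception and rose from 322.8 to 359.2 FPKM (0.15, adjusted p = 0.00169).

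Of 8 genes that act on these receptors or their ligands, 7 were tested. *Cd69*, whose product binds S1PR1 and takes it off the cell surface, fell from 16.6, 17.6 and 18.6 FPKM to 8.33, 7.30 and 7.40 FPKM (log2FC -1.10, limma adjusted p = 4.82e-05). RNA of *Cd69* and of *S1pr1* was therefore lower in the same libraries. *Klf2*, a factor that turns on *S1pr1*, had 5.42, 3.90 and 3.89 FPKM in control against 4.94, 2.73 and 4.04 FPKM in *Myh9*-deficient libraries, which overlapped (log2FC -0.15, 95% interval -0.60 to 0.29, adjusted p = 0.551). Its interval is wide enough to hold both no change and a fall of the size seen in *S1pr1*. *Dpp4*, the surface peptidase that cleaves CXCL12, fell from 6.76 ± 0.353 to 5.41 ± 0.218 FPKM (-0.27, adjusted p = 0.00694), and *Hif1a* by 0.17 on the log2 scale (adjusted p = 0.0415), a call that remained without cKO replicate 3 and was lost without any 1 of the other 5 libraries. *Cd74* and *Mif*, which encode a receptor that pairs with CXCR4 and the ligand of both, rose from 6.47 ± 0.205 to 18.3 ± 0.398 FPKM (1.37, adjusted p = 3.53e-06) and from 817.3 to 1063 FPKM (0.38, adjusted p = 5.46e-05).

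**Figure D5:**
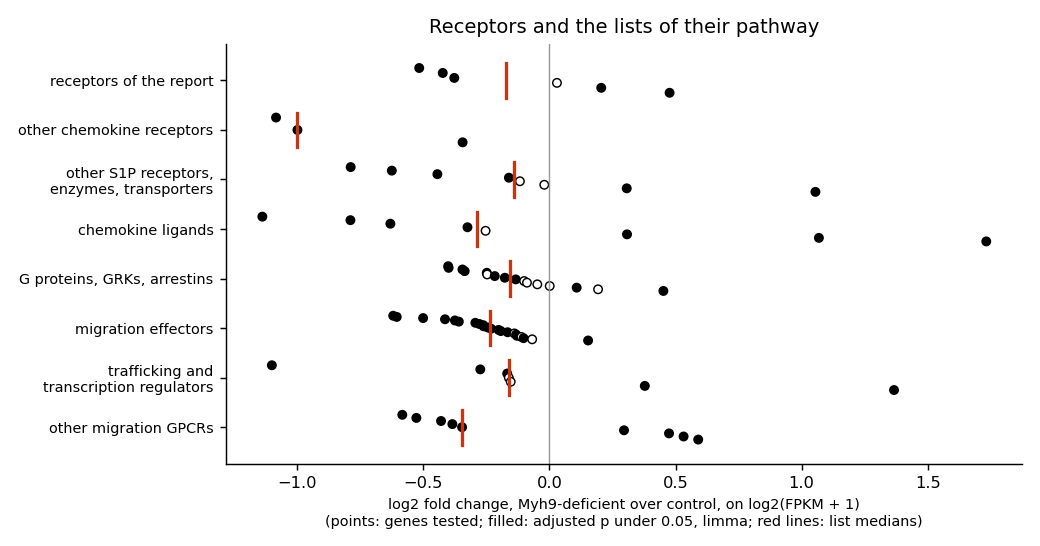
Log2 fold changes, *Myh9*-deficient over control on log2(FPKM + 1), of the receptors tested and of the genes tested in 7 lists of their pathway; each point is a gene, filled where the adjusted p is under 0.05 (limma), and red lines are medians. The migration effectors lie below 0 except for *Coro1a*, and the other lists hold genes on both sides, apart from the 3 other chemokine receptors, which all lie below 0.

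Over the 7 lists, 73 of 115 genes were tested, 14 rose and 45 fell (median log2FC -0.22), against 19.9% higher and 20.6% lower over all genes tested. Leaving out 1 library gave 12 to 13 higher and 34 to 41 lower in the lists. Over all genes tested it gave 1784 to 2043 higher and 1758 to 2065 lower. Likeness in pattern was measured as the root mean square difference over the 6 libraries in log2(FPKM + 1), centred on the control mean, among genes within 4-fold of the level. For *S1pr2* the nearest genes were *Pcx* (0.015) and *Bambi* (0.029), for *S1pr1* *Vegfa* (0.043) and *Bcr* (0.056), and for *Cxcr2* *Arhgef10l* (0.035) and *Spice1* (0.045). For *S1pr4* the nearest was *Desi1* (0.018), and for *Ccr1* they were *Clnk* (0.10) and *Arl4d* (0.10). Between 4316 and 7394 genes were compared with each receptor.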

How the data were processed

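RNA of sorted LSK cells was sequenced from Illumina TruSeq libraries, and the submitters' processing notes name HISAT2 2.0.5 and the genome build mm10. The counting program is not given in the sources used here. The authors deposited 1 table of FPKM values per gene and library with gene lengths, which are not raw counts. Reads were recovered by multiplying FPKM by length and dividing by each library's smallest step (whole within 0.02 of a read). All 8 gene positions were those of GENCODE M21.

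Genes averaging 1 FPKM or more were tested on log2(FPKM + 1) with limma 3.58.1 in R 4.3.3 (lmFit and eBayes with a trend, two-sided, Benjamini-Hochberg over all genes tested), with no covariate. The fit was checked on simulated data with far fewer changed genes than were called here. That check does not measure the error rate of these calls. The study's methods state 1 general test for all its data and name none across genes. The alternatives were a pseudocount of 0.1, no filter, a mean of at least 5 FPKM, median of ratios scaling, quantile normalization, no moderation of the variance, limma's voom with TMM scaling (trimmed mean of M values) on recovered reads, a replicate block and leaving out each library. Removal of GC content and length trends, and voom without a filter, were chosen after seeing the data. The receptors and all gene lists were chosen with earlier results of these data known, so counts over a list are no independent evidence. Named genes were *Myh9*, the 8 receptors, every tested gene of the chemokine receptor and S1P lists, and of the other pathway lists up to 3 in each direction with the largest change at an adjusted p under 0.05. Genes named outside this rule (marker genes, *Klf2*, *Cxcl12*, *Cxcl10*, *S1pr5*, *Slc6a20a*, *Gnai3*, *Ptger2*, *Ccr10*, *Cxcr5*, *Cxcr6*) were chosen after their values were seen. The 2 genes nearest in pattern were named for each called receptor, except 1 that is not reported here. Intervals cover the spread between libraries, and read numbers carry no molecular identifiers. Python 3.11.15 with pandas 2.3.3 and matplotlib 3.10.9 was used for tables and plots.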

Additional observations from a re-analysis of the deposited data

How the results depend on the processing

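The falls of *Cxcr2*, *S1pr1* and *S1pr2* and the rise of *S1pr4* kept their direction and an adjusted p under 0.05 in every fit that tested them. Leaving out 1 library gave log2 fold changes of -0.56 to -0.46 for *Cxcr2*, -0.49 to -0.37 for *S1pr1*, -0.42 to -0.33 for *S1pr2* and 0.17 to 0.24 for *S1pr4*. The mean of at least 5 FPKM left only *Cxcr4* and *S1pr4* tested, with 1 receptor higher and 0 lower, because fewer genes were tested. *Ccr1* kept its log2 fold change of 0.48 but not its call without the filter (adjusted p = 0.0880), without moderation of the variance (0.0959) and with a replicate block (0.0523), and gave 0.40 to 0.62 without 1 library. The number of receptors higher was then 1 in place of 2 without moderation, with the block and in 5 of the 6 fits without 1 library (1 to 2), and 4 with voom without a filter, where *Cxcr3* moved to 2.35 and *Ccr9* to 1.27. *Cxcr4* reversed to -0.0085 (quantile normalization) and -0.060 (GC content and length trends removed). Genes not called that reversed were *Mfsd2b* (0.052 with these trends removed), *Klf2* (-0.30 to 0.031 without 1 library, above 0 without cKO replicate 2) and *Gnai3*, at -0.022 after quantile normalization, -0.0064 with these trends removed, -0.0055 with voom without a filter and -0.010 to 0.021 without 1 library. The causes of these moves were not tested. Deviations of same-numbered libraries from their group means showed no shared pattern (correlations -0.026 to -0.0046 over genes). With deviations centred in groups of 3 libraries, this cannot decide whether the numbers pair them. The block called 2063 genes higher and 2044 lower in place of 2295 and 2378. Depth limits *Ccr9*, *Cxcr3* and *Ccr1*, which had under 100 reads in every library.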

Other observations

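Of 16 other G protein-coupled receptors of cell migration, 9 were tested, and 4 were higher and 5 lower in the *Myh9*-deficient group (40.5% of all genes tested were called). Among those lower, *Ptger2* (1.38 against 0.824 FPKM), passed the limit of 1 FPKM through the control group alone. Of the 4 higher, the 3 with the largest log2FC were *Adora2a*, *P2ry14* and *Ptger3*. *Adora2a*, an adenosine receptor, rose from 3.29 ± 0.367 to 5.45 ± 0.403 FPKM (SD, n = 3 each, log2FC 0.59, limma adjusted p = 0.00170). *P2ry14*, the UDP-glucose receptor, rose from 1.79 to 3.04 FPKM (0.53) and the prostaglandin receptor *Ptger3* from 3.64 to 5.43 FPKM (0.47). Those lower were led by *Ltb4r1*, a leukotriene B4 receptor, from 18.6 ± 1.52 to 12.1 ± 0.226 FPKM (log2FC -0.58, limma adjusted p = 5.40e-04). This order holds on the log2(FPKM + 1) scale, which shrinks the changes of genes with low FPKM. *Gpr183*, the oxysterol receptor, fell from 2.02 to 1.10 FPKM (-0.53) and the prostaglandin receptor *Ptger4* from between 2.65 and 3.39 to between 1.76 and 2.16 FPKM (-0.43). The groups were apart in each of these 6 genes. The prostaglandin E2 receptors *Ptger3* and *Ptger4* thus moved in opposite directions.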
